A study of Mus musculus with 8 samples.

Results

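Leukocyte integrins and selectin-binding molecules are the adhesion receptors by which blood cells hold on to vessel walls, stroma and matrix. The genes described here are Itgam, Itgal, Itgb2, Itga4, Itgb1, Itgb7, Itgb3, Selplg and Cd44, chosen by name and matched through the RefSeq transcript each array probe was designed on. All 9 genes were measured, by 19 probes, and all 19 probes passed the filter on dim signal, against 39098 of 55681 probes over the whole array. The test was made on 1 probe per gene, which left 28088 features, 15856 of them with a gene symbol.

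RNA came from bone marrow of female C57/Bl6 mice 12 weeks old, either wild type or lacking ACKR1, a chemokine-binding receptor that does not signal through G proteins. The deficient line was kept by heterozygous breeding on a C57Bl/6J background, and wild-type littermates served as controls. LSK cells (negative for lineage markers, positive for Sca1 and cKit) hold haematopoietic stem cells and multipotent progenitors, and GMP (negative for lineage markers and Sca1, positive for cKit, CD34 and CD16/32) hold granulocyte-macrophage progenitors. The 8 one-colour arrays form 4 groups of 2, one group per population and genotype. The labels name neither the antibodies of the lineage mix nor the animal behind each array, so the p-values rest on a spread between samples that may be technical.

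An integrin is a pair of an alpha and a beta chain. The beta 2 chain of Itgb2 pairs with the alpha chains of Itgam and Itgal to form Mac-1 (CD11b/CD18) and LFA-1, which bind ICAM-1 among other ligands and let neutrophils and other leukocytes arrest on and cross endothelium. The alpha 4 chain of Itga4 pairs with the beta chains of Itgb1 and Itgb7, and with the former makes VLA-4, the receptor for VCAM-1 and fibronectin that retains progenitors in the marrow. Selplg encodes PSGL-1, the main ligand that leukocytes present to selectins, and Cd44 encodes the hyaluronan receptor, some glycoforms of which also bind E-selectin.

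Levels are given as log2 of the signal relative to that array's 75th percentile, and every difference is on that log2 scale. Each probe binds with its own strength, so levels were compared between samples and not between genes. A feature was called at an adjusted p under 0.05, from limma's moderated test with Benjamini-Hochberg adjustment over all 28088 features. In bulk RNA, fewer cells expressing a gene and less RNA per cell cannot be told apart.

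The arrays differed in quality. On 7 arrays 62.5% to 73.1% of spots were well above background, against 34.3% on deficient LSK replicate 2, which correlated with the other arrays at r between 0.683 and 0.776. Deficient GMP replicate 1 correlated at 0.888 with its own replicate, while the wild-type GMP arrays correlated at 0.973. For many results the value without these 2 arrays is given as well. In wild type, 6 of 11 tested LSK markers were called lower in GMP (1 to 6 with 1 of the 8 arrays left out, and 1 with any single wild-type array left out), and 5 of 12 GMP markers were called higher (0 to 7, and 0 without wild-type LSK replicate 1). Ly6a, which encodes the Sca1 that GMP were sorted to lack, was not lower in wild-type GMP, at 1.83 and 3.79 in LSK and 2.83 and 3.11 in GMP. Between deficient populations 0 of either list were called by limma. The Ackr1 probe differed by 0.08 between genotypes in LSK (adjusted p = 0.954) and by 0.36 in GMP (adjusted p = 1.000). Its place relative to the deleted sequence is not given in the sources used here, so the genotype labels could not be checked by it. Scaling to each array's median in place of the 75th percentile moved every feature by the same amount, by −0.57 for the genotype difference in LSK, −0.29 in GMP, 0.33 for the population difference in wild type and 0.61 in deficient mice.

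RefSeq promoter windows, the 250 bases upstream of the annotated start in build GRCm38.p6, were at hand for 5 of the 9 genes (Itgam, Itga4, Itgb1, Itgb7 and Cd44). They were searched on both strands for GAGGAA (reverse complement TTCCTC), a purine-rich core bound by the myeloid ETS factor PU.1. It occurred in 3 of the 5 windows, and in 23.3% of the 32851 RefSeq windows of that length. The Itgam window is shown for the myeloid alpha chain, those of Itgb1 and Cd44 as the other windows with a match, and that of Itga4 as one with none. Matches are in capitals, and each sequence is 5′ to 3′ on the gene's own strand.
Itgam, chr7:128062390-128062639, plus strand: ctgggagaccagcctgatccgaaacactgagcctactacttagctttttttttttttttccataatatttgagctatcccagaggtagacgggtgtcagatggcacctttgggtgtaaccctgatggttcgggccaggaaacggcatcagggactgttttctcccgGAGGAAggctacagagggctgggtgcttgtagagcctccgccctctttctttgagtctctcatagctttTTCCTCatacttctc
Itgb1, chr8:128685404-128685653, plus strand: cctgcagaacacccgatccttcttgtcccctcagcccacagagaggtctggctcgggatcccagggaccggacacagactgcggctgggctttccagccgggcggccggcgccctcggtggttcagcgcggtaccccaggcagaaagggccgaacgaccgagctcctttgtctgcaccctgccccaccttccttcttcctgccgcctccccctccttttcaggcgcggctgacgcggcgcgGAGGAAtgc
Cd44, chr2:102901666-102901915, minus strand: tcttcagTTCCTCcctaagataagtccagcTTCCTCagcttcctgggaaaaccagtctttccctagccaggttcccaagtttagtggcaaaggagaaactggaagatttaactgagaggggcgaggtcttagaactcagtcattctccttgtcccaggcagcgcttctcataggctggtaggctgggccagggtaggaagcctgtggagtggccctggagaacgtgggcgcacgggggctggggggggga
Itga4, chr2:79255176-79255425, plus strand: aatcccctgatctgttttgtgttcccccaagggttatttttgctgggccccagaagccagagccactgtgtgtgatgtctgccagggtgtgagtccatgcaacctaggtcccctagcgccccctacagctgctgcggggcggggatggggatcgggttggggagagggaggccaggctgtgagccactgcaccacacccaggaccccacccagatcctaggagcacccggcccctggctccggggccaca
The matches began 84 and 15 bases before the start in Itgam, 9 bases before it in Itgb1, and 243 and 220 bases before it in Cd44. In Itgam, 1 match lay on the gene's strand and the other on the opposite strand. The GC-box core GGGCGG (reverse complement CCGCCC) was present in 3 of the 5 windows, those of Itgam, Itga4 and Itgb1, against 32.7% of all windows. TATAAA (reverse complement TTTATA) was present in 0 of the 5, against 12.4% of all windows. A match describes letters only and shows no binding.

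None of the 9 genes passed the test in any of the 6 comparisons made, which were the genotype difference in LSK, in GMP, averaged over both and compared between both, and the population difference in each genotype. For the genotype difference 0 of 9 were called in LSK, where 0.239% of all features were called, 0 of 9 in GMP against 0.146%, and 0 of 9 in the average of both against 0.602%. For the difference between populations 0 of 9 were called in wild type, where 1.86% of features were, and 0 of 9 in deficient mice, where no feature was (0%). The test of whether the genotype difference varied between populations called 0 of 9 and no feature at all (0%). At an unadjusted p under 0.05 the counts of the 9 were 0 in LSK, 0 in GMP, 0 in their average, 0 for the comparison of both, 1 for populations in wild type and 1 in deficient mice, against 8.83%, 4.82%, 12.2%, 2.47%, 8.4% and 16.7% of all features.

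**Figure D1:**
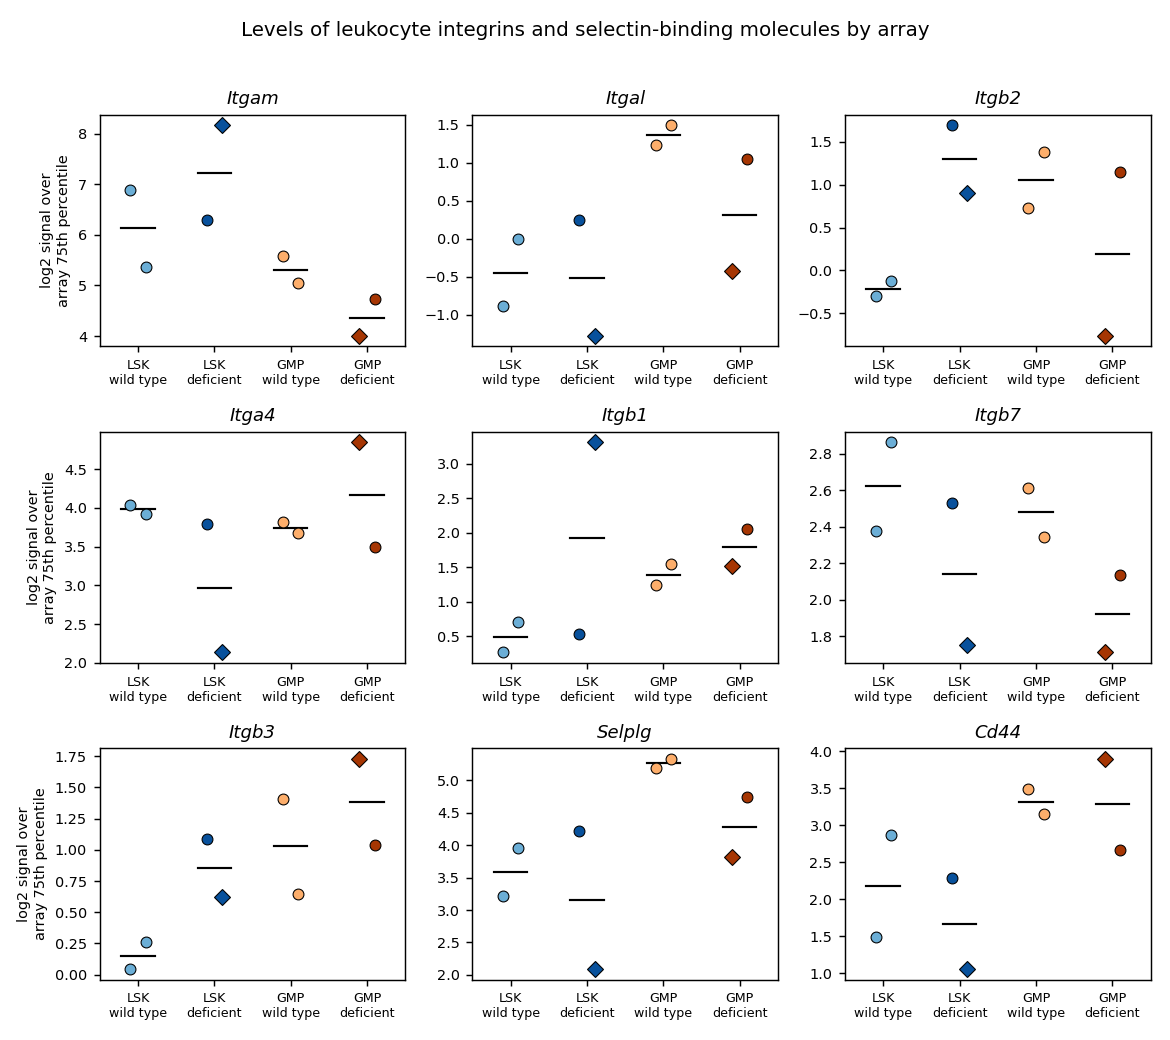
Levels of the 9 genes on each of the 8 arrays, as log2 signal relative to each array's 75th percentile, with each group's mean as a bar. Diamonds are deficient LSK replicate 2 and deficient GMP replicate 1, which stand apart from the other arrays. Itgal and Selplg lie higher in wild-type GMP than in wild-type LSK, and in most panels the 2 deficient arrays of a population are farther apart than the wild-type ones.

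Among the beta 2 integrins, Itgb2, the shared beta chain, stood in LSK at −0.30 and −0.12 for wild type and at 1.69 and 0.90 for deficient mice. In GMP it stood at 0.73 and 1.39 in wild type and at −0.76 and 1.15 in deficient mice. Both deficient LSK arrays thus lay above both wild-type ones, and wild-type LSK was also below wild-type GMP, whereas the GMP genotypes overlapped. The genotype difference was 1.51 in LSK (SE 0.78, adjusted p = 0.553) and −0.86 in GMP (adjusted p = 0.958). The test of the difference between these values gave −2.37 (SE 1.10, unadjusted p = 0.0574, adjusted p = 0.961 by limma). Without both arrays that stand apart the values were 1.90 in LSK and 0.10 in GMP, so the direction in GMP rested on deficient GMP replicate 1.

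Itgam, the alpha chain of Mac-1, had LSK levels of 6.88 and 5.37 in wild type against 6.30 and 8.16 in deficient mice. Its GMP levels were 5.57 and 5.06 in wild type against 4.01 and 4.73 in deficient mice. The highest array was the weak deficient LSK replicate 2. Deficient GMP lay below deficient LSK by 2.86, or 7.28-fold (SE 0.84, unadjusted p = 0.00668), the smallest p of the 9 genes, which did not pass adjustment (adjusted p = 0.174). The gap narrowed to −1.57 without both arrays that stand apart, and with the weak array as the only deficient LSK sample (replicate 1 left out) it was −3.80 and called (adjusted p = 0.0344). The other 2 Itgam probes differed by −0.77 and 0.71 in that comparison, so the 3 probes disagreed in direction. They disagreed again for the genotype difference in GMP, which ranged from −0.95 to 0.87 over the probes, and were all above 0 in LSK, from 0.24 to 1.52.

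Itgal, the alpha chain of LFA-1, stood at −0.89 and −0.01 in wild-type LSK and at 1.24 and 1.49 in wild-type GMP. In deficient mice the levels were 0.25 and −1.28 in LSK and −0.42 and 1.05 in GMP. The −1.28 belongs to deficient LSK replicate 2, on which the probe was not well above background. The wild-type arrays thus separated by population, and the deficient ones overlapped. GMP exceeded LSK in wild type by 1.81, or 3.51-fold (SE 0.80, unadjusted p = 0.0468, adjusted p = 0.580), the largest population difference in wild type among the 9. Both Itgal probes gave it, at 1.81 and 2.06. With estimated array weights the same difference of 1.81 was called (adjusted p = 0.0426), a setting under which 2217 features were called in place of 522. The weights ran from 0.317 (both deficient LSK arrays) to 3.98 (both wild-type GMP arrays), and replicates of a group always shared the same weight. This setting therefore did not weight the weak deficient LSK replicate 2 below its replicate 1.

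Itga4, the alpha chain of VLA-4, varied least between the wild-type arrays at the probes tested. Its levels there were 4.04 and 3.92 in LSK and 3.81 and 3.68 in GMP. The deficient arrays ranged more widely, at 3.79 and 2.13 in LSK and 4.85 and 3.49 in GMP, with both extremes on the arrays that stand apart. The genotype difference of −1.02 in LSK (SE 0.77, adjusted p = 0.607) became −0.19 without them. That of 0.42 in GMP became −0.25. A second Itga4 probe, well above background on 6 arrays, ran from −3.38 to −2.20 on the wild-type arrays. Its genotype difference was 0.36 in LSK and −0.12 in GMP, so the probes disagreed in direction. They also disagreed between deficient populations, at 1.21 for the tested probe and −0.52 for the second.

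Itgb1, the beta chain of VLA-4 and of many matrix receptors, had LSK levels of 0.27 and 0.72 for wild type against 0.53 and 3.32 for deficient mice. In GMP it stood at 1.24 and 1.54 in wild type and at 1.52 and 2.06 in deficient mice. At this tested probe the genotypes overlapped in both populations. Its 1.43 difference in LSK (SE 0.89, adjusted p = 0.574) rested on the 1 high value on the weak array and was 0.04 without both arrays that stand apart. With that weak array as the only deficient LSK sample, the difference was 2.83 and called (adjusted p = 0.0416). Both Itgb1 probes gave a genotype difference above 0 in each population. The other probe read −0.69 and −1.75 in wild-type LSK and −0.34 and 1.67 in deficient LSK. In GMP it read −0.50 and −0.63 in wild type and 0.05 and 0.67 in deficient mice. Its genotypes thus did not overlap in either population. With every probe tested, the fit gave it 1.89 in LSK (adjusted p = 0.574) and 0.93 in GMP (adjusted p = 0.963).

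Itgb7, the beta chain that joins alpha 4 in the gut-homing integrin, kept within a narrow range. The LSK levels were 2.38 and 2.86 for wild type and 2.53 and 1.75 for deficient mice. The GMP levels were 2.61 and 2.35 for wild type and 1.71 and 2.13 for deficient mice. Deficient GMP lay below wild-type GMP on both arrays, by 0.56 on average (difference −0.56, 95% interval −2.00 to 0.89, adjusted p = 0.981). The group means of this gene spanned 0.70 in all, the least of the 9.

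Itgb3, the beta chain of the platelet integrin and of the vitronectin receptor, had its lowest group mean in wild-type LSK and its highest in deficient GMP. LSK arrays read 0.04 and 0.26 for wild type and 1.09 and 0.62 for deficient mice. GMP arrays read 1.41 and 0.65 for wild type and 1.73 and 1.04 for deficient mice. Both deficient LSK arrays were above both wild-type ones, by 0.70 on average (SE 0.66, adjusted p = 0.652), while the GMP genotypes overlapped. A second Itgb3 probe was not well above background on any wild-type array. It was well above background on 1 of 2 deficient LSK arrays and on 2 of 2 deficient GMP arrays. Only through deficient GMP did it pass the filter on dim signal. Its reading there, 1.92 above wild type, is therefore no support for a genotype difference. With every probe tested, the fit gave adjusted p = 0.348 in LSK and adjusted p = 0.962 in GMP for it.

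Selplg, which encodes PSGL-1, had levels of 3.22 and 3.96 in wild-type LSK and 5.19 and 5.33 in wild-type GMP. In deficient mice it had 4.22 and 2.09 in LSK and 3.82 and 4.74 in GMP. At this tested probe wild-type GMP was the highest group and did not overlap any other, while at the other probe it overlapped deficient GMP. The wild-type populations differed by 1.67, or 3.18-fold (SE 0.82, adjusted p = 0.674), and the genotypes of GMP by −0.98 (adjusted p = 0.958). Both Selplg probes gave the same directions in these comparisons, at 1.67 and 1.95 between populations and −0.98 and −1.60 between GMP genotypes. Without deficient GMP replicate 1 the latter was −0.52.

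Cd44, the hyaluronan receptor, had LSK levels of 1.49 and 2.87 (wild type) and of 2.29 and 1.06 (deficient). Its GMP levels were 3.49 and 3.15 (wild type) and 3.90 and 2.67 (deficient). At this tested probe GMP lay above LSK within each genotype with no overlap. The differences were 1.14 in wild type (adjusted p = 0.913) and 1.61 in deficient mice (SE 0.79, adjusted p = 0.336), the latter falling to 0.38 without both arrays that stand apart. All 4 Cd44 probes were higher in wild-type GMP, from 0.41 to 1.14, and 3 of 4 in deficient GMP. For the genotype difference in GMP the 4 probes ranged from −2.80 to 0.47, with 3 below 0.

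Between genotypes, the 9 differences had a median of −0.07 in LSK beside 0.11 over all features, and of −0.56 in GMP beside 0.16. Without both arrays that stand apart these medians were 0.17 beside −0.081 in LSK and −0.31 beside −0.092 in GMP, so the sign of the median in LSK rested on those arrays. In LSK, 2 of 9 genes had both deficient arrays above both wild-type ones (Itgb2 and Itgb3), beside 16.4% of all features, and 1 of 9 had both below (Itga4), beside 21.1%. In GMP, 0 of 9 lay wholly above, beside 20.1%, and 4 of 9 wholly below (Itgam, Itgal, Itgb7 and Selplg), beside 19.5%. At every other probe of Itgam, Itgal and Selplg the GMP genotypes overlapped, and Itgb7 had only 1 probe. Between populations in wild type, 6 of 9 lay wholly higher in GMP (Itgal, Itgb2, Itgb1, Itgb3, Selplg and Cd44), beside 28.3%, and 1 wholly lower (Itga4, whose mean difference of −0.23 was 0.09 with arrays scaled to their medians), beside 20.2%. The median of that difference was 0.90 for the 9 and 0.01 for all features. In deficient mice 1 of 9 was wholly higher in GMP (Cd44), beside 18.4%, and 1 wholly lower (Itgam), beside 18.5%. All these counts were made at the 1 probe tested per gene. The comparisons share arrays, so the counts are not independent of each other.

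**Figure D2:**
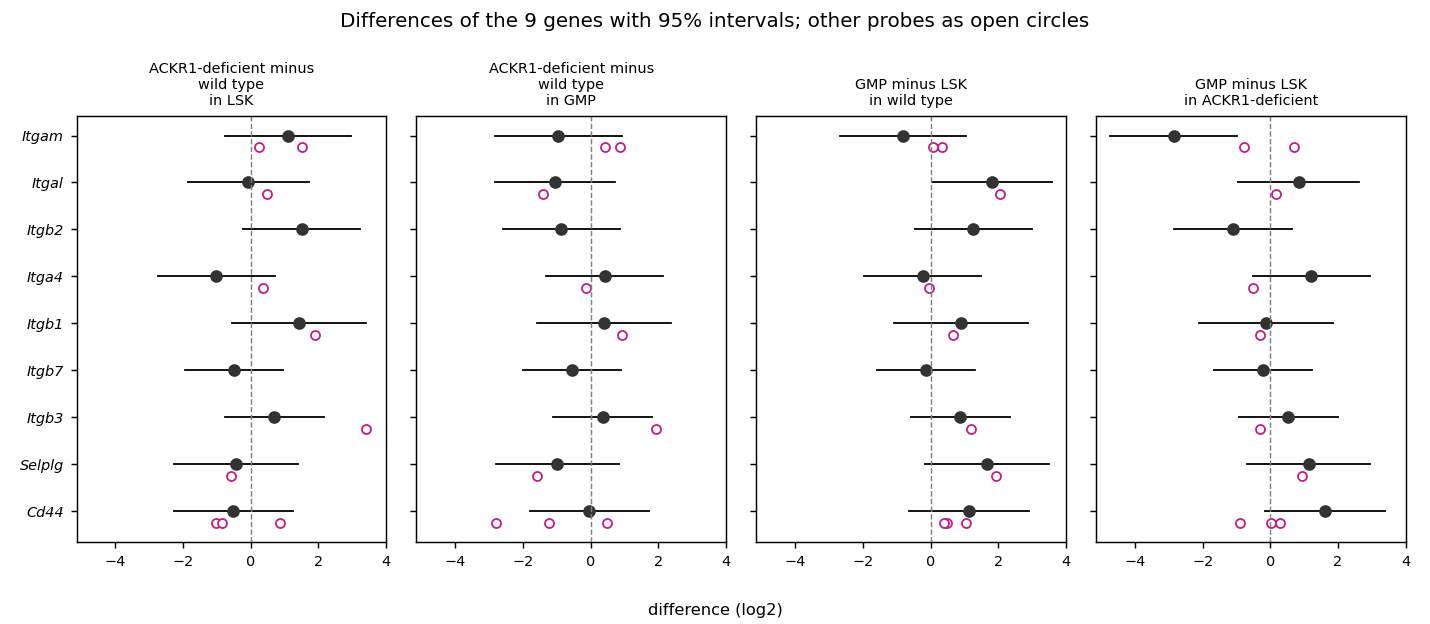
Differences of the 9 genes in log2 units (filled points) with 95% intervals (lines) for 4 comparisons, and the other probes of each gene as open circles. Most intervals cross 0. Those of Itgam between deficient populations and of Itgal between wild-type populations do not, and neither was called after adjustment over all features.

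At the 1 probe tested per gene, the alpha and beta chains of one receptor did not share the closest profiles. Likeness was the mean absolute difference between the mean-centred levels of 2 genes over the 8 arrays, taken against 15849 genes, as a description with no test. Itgb2 ranked 3633 among the genes nearest to Itgal, at 0.750, and 6020 among those nearest to Itgam, at 1.10. For Itga4, Itgb7 ranked 2809, at 0.488, and Itgb1 ranked 12591, at 1.14. Selplg was the second nearest of all genes to Itgal, at 0.196, after Csf2rb at 0.190. The points share 8 arrays, 1 of them weak, and a small difference can come from genes that vary little. On that weak array Itga4 was at its lowest and Itgb1 at its highest. The other Itgam probes, which disagreed with the tested one as given above, were not used. The nearest genes of 7 others were Hexim2 and Fgf23 for Itgam, Sh3kbp1 and Hcfc2 for Itgb2, Usp12 and Ipo8 for Itga4, Grm5 and Oip5 for Itgb1, Mki67 and Sap30bp for Itgb3, Ehbp1l1 and Gemin5 for Selplg, and Rnft1 and Wdr3 for Cd44.

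Of the other integrin subunits, 14 of 20 listed genes were tested and 1 was called between genotypes, Itgb2l, which encodes a beta chain closely related to that of Itgb2. Itgb2l stood in LSK at −6.59 and −7.92 for wild type and at 3.24 and 0.70 for deficient mice. In GMP it stood at −7.11 and −6.13 in wild type and at 3.26 and 1.15 in deficient mice. With the main processing it was at least 239-fold higher in deficient LSK (adjusted p = 0.0113 by limma). In deficient GMP it was at least 277-fold higher (adjusted p = 0.0152 by limma). No wild-type array read it well above background, so its difference has no exact size. Over the alternatives the difference was as low as 4.82 in LSK and 4.88 in GMP, against 9.22 and 8.82 with the main processing. These bounds therefore hold for the main processing only. The average over both populations was called as well (adjusted p = 0.000594). That of Itgb2 was 0.32 (adjusted p = 0.825), and −0.11 with arrays scaled to their medians. Without both arrays that stand apart Itgb2l was still called higher in LSK (adjusted p = 0.0434) and no longer in GMP (adjusted p = 0.106). With 1 of the 8 arrays left out at a time, the call was lost in LSK without wild-type replicate 1, wild-type replicate 2 or deficient replicate 2 (adjusted p of 0.0864, 0.106 and 0.0638 by limma) and in GMP without deficient replicate 1 (0.227), and was kept in the average each time.

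Markers of mature neutrophils moved in the same samples as Itgb2l. Of 11 tested markers of late neutrophil granules (such as Ngp, Camp, Ltf and Retnlg), 8 were called higher in deficient LSK, 6 in deficient GMP and 11 in the average. Of all features 0.239%, 0.146% and 0.602% were called, higher or lower, in these comparisons. With 1 of the 8 arrays left out these counts ran from 0 to 10 in LSK (0 without deficient replicate 2 and 2 without wild-type replicate 1), from 2 to 6 in GMP (2 without deficient replicate 1) and from 7 to 10 in the average (7 without wild-type LSK replicate 2). The log2 of their summed signal ran in LSK from 1.76 to 3.41 (wild type) and from 10.40 to 11.67 (deficient), and in GMP from 3.14 to 4.11 (wild type) and from 10.29 to 11.70 (deficient). Of 11 erythroid markers 5, 5 and 8 were called higher, with sums of 4.01 to 5.78, 10.57 to 13.06, 2.81 to 3.78 and 10.59 to 11.55 in the same group order. Their counts with 1 array left out ran from 0 to 7 in LSK (0 without deficient replicate 2 or wild-type replicate 1), from 0 to 5 in GMP (0 without deficient replicate 1 and 1 without deficient replicate 2) and from 5 to 8 in the average. Of 10 B lineage markers 1, 2 and 4 were called higher in LSK, in GMP and in the average, and 0 to 3, 0 to 1 and 2 to 4 with 1 array left out. Of 12 GMP markers 1 was called higher in LSK (Cebpe), and 0 without either wild-type LSK array or deficient LSK replicate 2. With all arrays, limma called 0 between genotypes of 8 T and NK cell, 12 megakaryocyte and platelet, 8 monocyte and macrophage, and 11 LSK markers, and at most 2 of any of these lists with 1 array left out. Ly6g and Ahsp, also listed, had no probe matched by accession. On at least 1 array of each wild-type group, Retnlg, Mmp9, Rhd, Hbb-bs and Ms4a1 read below the lowest signal well above background. These genes passed the filter on dim signal only through deficient groups, where they read high. The marker calls between genotypes are therefore not independent of that selection. The part of the markers in the Itgb2l result was not tested.

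**Figure D3:**
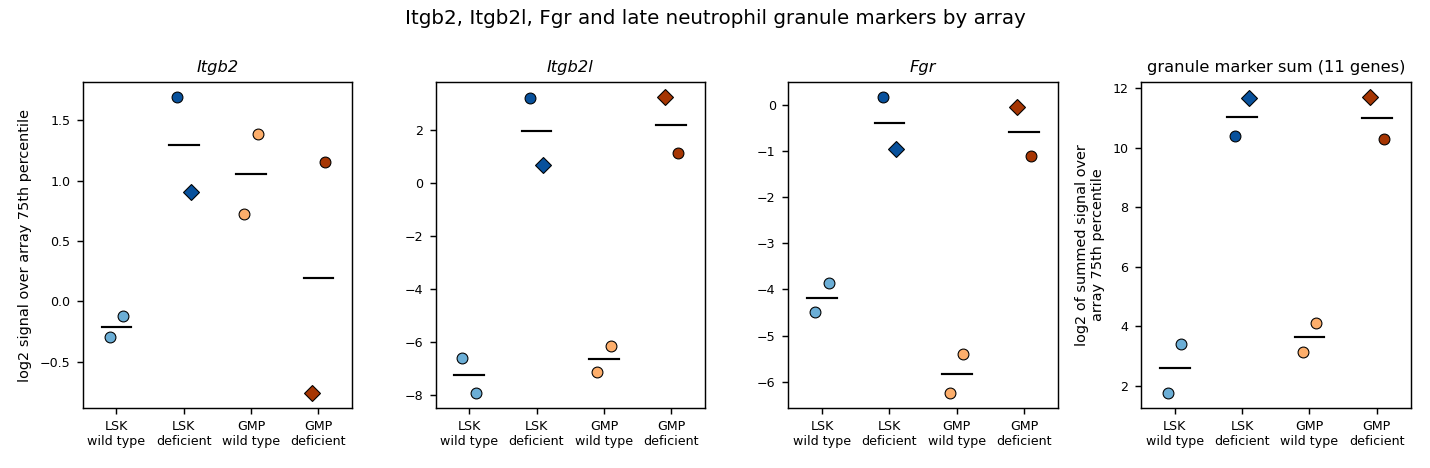
Levels of Itgb2, Itgb2l and Fgr and the log2 summed signal of 11 late neutrophil granule markers on each array, with group means as bars and the 2 arrays that stand apart as diamonds. Itgb2l, Fgr and the granule sum are higher on all 4 deficient arrays than on all 4 wild-type arrays, while Itgb2 is not.

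The machinery that switches integrins on and links them to the cytoskeleton gave 1 call between genotypes. Of 28 tested genes (talins, kindlins, Rap1 and others), 0 were called in LSK, 0 in GMP and 1 in the average, Skap1, which encodes an adaptor of integrin activation (adjusted p = 0.0462, and 0.0660 without both arrays that stand apart). Skap1 ran from −7.62 to −4.42 on the wild-type arrays, well above background on 1 of 4, and from −4.11 to −2.30 on the deficient ones, well above background on 3 of 4, so its difference has no exact size. Of 22 kinases and adaptors that signal from integrins and PSGL-1, 1 was called in GMP and 1 in the average, in each case Fgr, a Src-family kinase of myeloid cells. Fgr had LSK levels of −4.49 and −3.87 (wild type) and of 0.17 and −0.96 (deficient). Its GMP levels were −6.25 and −5.41 (wild type) and −0.05 and −1.12 (deficient). With the main processing it was at least 31.9-fold higher in deficient GMP (adjusted p = 0.0336 by limma), a call lost without any 1 of the 8 arrays. Over the alternatives the difference in GMP was as low as 2.27, against 5.25 with the main processing. Fgr was not called in LSK (adjusted p = 0.116 by limma), where 1 array of each genotype was well above background. Averaged over both populations Fgr was called higher (adjusted p = 0.00419), a call kept without each of the 8 arrays in turn. Between wild-type populations the list had 1 call, Fcer1g, an ITAM adaptor, higher in GMP by 3.66 (adjusted p = 0.0312).

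Of 14 tested counter-receptors, 2 were called in the average of both populations. They were Fn1, encoding fibronectin, the VLA-4 ligand (difference 4.43, adjusted p = 0.0290), and Thbs1, encoding thrombospondin 1 (adjusted p = 0.0308, and 0.0554 without both arrays that stand apart). Thbs1 ran from −7.54 to −5.56 on the wild-type arrays, well above background on 1 of 4, and from −3.86 to −0.51 on the deficient ones, well above background on 3 of 4. Between wild-type populations F11r and Jam3, junctional adhesion molecules that bind LFA-1 and Mac-1, were lower in GMP, with differences of −4.82 (adjusted p = 0.0109) and −3.89 (adjusted p = 0.0351). Itga9, whose alpha chain pairs with beta 1, was also lower there (difference −3.17, adjusted p = 0.0467). The granule and erythroid markers given above were higher on the same deficient arrays as Skap1, Fgr, Fn1 and Thbs1, and their part in these results was not tested. Skap1, Fgr and Thbs1, like Itgb2l, passed the filter on dim signal only through deficient groups, where they read high. The calls of these genes between genotypes are therefore not independent of that selection. Leaving out 1 of the 8 arrays at a time ended the call 7 times for Skap1, 6 times each for Fn1, Thbs1, Jam3 and Itga9, and 4 times each for F11r and Fcer1g. For F11r and Fcer1g these were the 4 wild-type arrays.

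No gene that makes or carries selectin ligands passed the test by limma in any of the 6 comparisons. Of 6 tested genes on the list of carriers, 0 were called in any comparison, and the smallest p was that of Emcn, encoding endomucin (−3.49 between wild-type populations, adjusted p = 0.0629, and 0.0233 without both arrays that stand apart). Of 13 genes that glycosylate and sulphate these ligands, 0 were called. St3gal6, a sialyltransferase, differed by 5.04 between GMP genotypes (adjusted p = 0.0892), and C1galt1c1, the chaperone of core 1 O-glycan synthesis, by 4.93 between deficient populations (adjusted p = 0.140). Without both arrays that stand apart these differences were 3.92 and 2.96. Of 7 linkers and hyaluronan genes of the Cd44 pathway, 0 were called, with Has1, a hyaluronan synthase, at 2.08 in the average (adjusted p = 0.384) and Hmmr, a hyaluronan receptor, at −1.26 in GMP (adjusted p = 0.955). Without both arrays that stand apart Has1 was at 0.80 and Hmmr at −0.29.

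**Figure D4:**
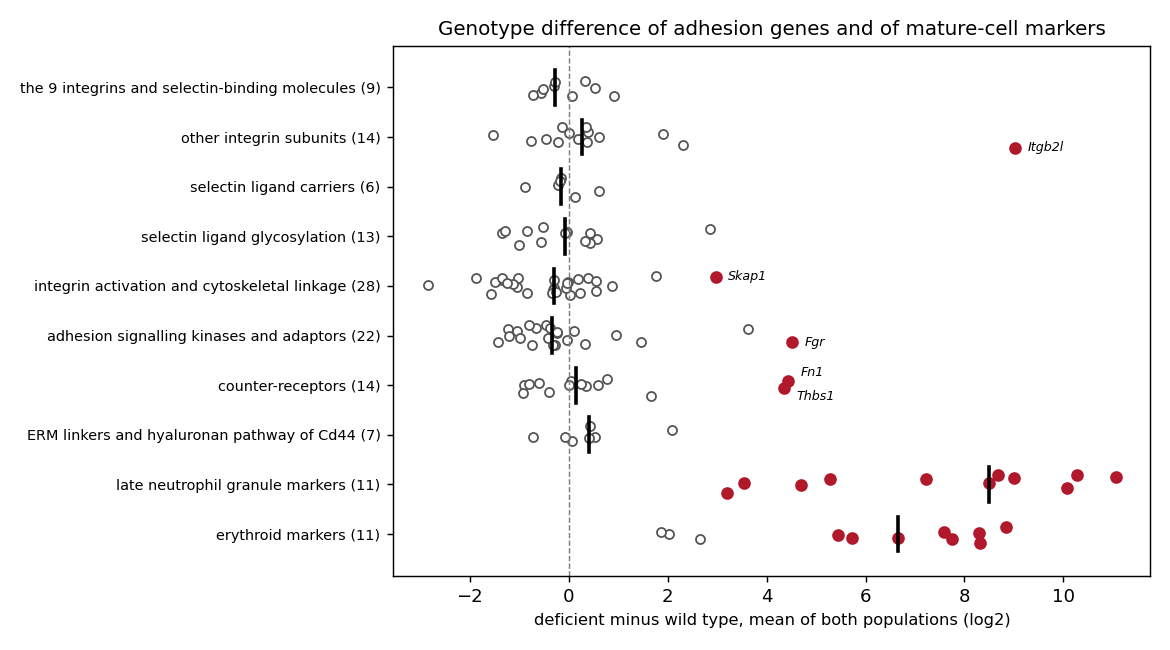
Genotype difference averaged over both populations, in log2 units, for the 9 genes, the other adhesion lists and 2 marker lists, with the number of tested genes in brackets. Filled points passed the test, open points did not, and bars are medians. Itgb2l, Skap1, Fgr, Fn1 and Thbs1 are the called adhesion genes, and all 11 granule markers were called. Of the called adhesion genes, Itgb2l, Skap1, Fgr and Thbs1 were well above background on at most 1 of 4 wild-type arrays, so their plotted differences are not exact sizes. They passed the filter on dim signal only through deficient groups, where they read high, as did Retnlg and Mmp9 among the granule markers.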

How the data were processed

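Gene expression was measured on 8 one-colour Agilent arrays, 2 per group. Per the file headers, Agilent Feature Extraction 10.7.3.1, also named in the submitters' processing notes, made the processed signal, a background-corrected intensity on a linear scale, and the design was annotated on build mm9. The authors' deposited normalized table holds log2 values. They correlated with log2 processed signal scaled to the array's 75th percentile, with each probe's median subtracted (r 0.999687 to 0.999965). The direction of its values is therefore known, while a correlation gives neither the scale nor the offset of an array. Its column medians ran from −0.27 to 1.25. The table served as an alternative.

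From the files, log2 processed signal minus the array's 75th percentile was computed, without control and outlier spots. No spot was saturated, and signal over background limits the precision. A probe was kept where both arrays of 1 or more groups had it well above background, and each gene was represented by its brightest probe. A gene dim in wild type could thus enter through deficient groups alone. Names came from RefSeq accessions. All comparisons come from 1 limma fit (version 3.58.1, R 4.3.3) of the 4 groups on all arrays, with Benjamini-Hochberg adjustment, where the residual degrees of freedom were 4 and the prior ones 5.76. For lower-bound folds, each array of the dim group took the higher of its measured level and the lowest signal well above background on that array. The fit was tested on simulated data. Arrays lay on 1 slide read in 1 scan, with deficient samples in slide column 1 and wild type in column 2, which means that genotype and column cannot be told apart. Normexp used median foreground signals. Figures were drawn with matplotlib.

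The 9 genes and the 15 gene lists were chosen with earlier results of these data known. All 9 genes are named, and of each other adhesion list the called genes, or the 2 with the smallest p. A few genes that these rules would name are not reported here.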

Additional observations from a re-analysis of the deposited data

How the results depend on the processing

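The count of the 9 genes called stayed at 0 under every alternative for the genotype difference in GMP (22 alternatives), its average over both populations (21) and its comparison between both (21). It was 0 under 21 of 22 alternatives for each other comparison. Leaving out 1 array at a time gave counts from 0 to 1 for the genotype difference in LSK and for populations in deficient mice, both 1 without deficient LSK replicate 1, and weighting the arrays gave 1 for populations in wild type. With the replicate number as a block the count was 0 in all 6 comparisons. Deviations of same-numbered arrays correlated at −0.344 in LSK and 0.262 in GMP, so the numbers were not taken as pairs. The number of features called ranged over the alternatives from 0 to 2827 in LSK, 0 to 75 in GMP, 40 to 206 in their average, 17 to 2217 between wild-type populations and 0 to 4258 between deficient ones.

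Values of the 9 genes changed sign in 30 of 678 cases with all or most arrays kept and in 34 of 432 cases with 1 array left out, and the cause was not tested. When both arrays that stand apart were dropped (a choice made after seeing the data), the genotype difference in LSK became 0.11 for Cd44, 0.70 for Itgal and 0.63 for Selplg, and in GMP −0.25 for Itga4 and 0.10 for Itgb2. The average over both became 0.19 for Itgal, −0.21 for Itgam and 0.051 for Selplg. The comparison of both became −0.76 for Cd44, −0.065 for Itga4 and 0.62 for Itgb1, and populations in deficient mice differed by −0.30 for Itga4, 1.52 for Itgb1 and −0.048 for Itgb3. Scaling to the array median gave 0.094 for Itga4 and 0.19 for Itgb7 between wild-type populations, 0.47 for Itgb1 and 0.39 for Itgb7 between deficient populations, −0.36 for Itgam and −0.11 for Itgb2 in the average of both, and 0.20 for Itgb7 in the comparison of both. Normexp background correction gave 0.27 for Itgal in LSK, −0.34 for Itgam in the average, 0.44 for Itgb7 in the comparison of both, and 0.30 for Itgb1 and 0.31 for Itgb7 between deficient populations. The mean of all probes gave −0.52 for Cd44 in the comparison of both, 0.22 for Itgal in LSK and 0.11 for Itgam in GMP, and quantile normalization gave 0.039 for Selplg in LSK.

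With 1 array left out, the genotype difference in LSK ranged from −1.20 to 0.18 for Cd44, −0.83 to 0.70 for Itgal and −1.51 to 0.63 for Selplg. In GMP it ranged from −0.65 to 0.58 for Cd44, −0.25 to 1.10 for Itga4, −1.82 to 0.10 for Itgb2 and −0.026 to 0.74 for Itgb3. The average ranged from −0.62 to 0.075 for Cd44, −0.71 to 0.12 for Itga4, −0.39 to 0.54 for Itgam and −0.15 to 0.80 for Itgb2. The comparison of both ranged from −0.22 to 1.16 for Cd44, −2.43 to 0.35 for Itgb1, −0.73 to 0.036 for Itgb3, −0.47 to 0.31 for Itgb7 and −1.61 to 0.52 for Selplg. Between populations the ranges were −0.38 to 0.10 for Itgb7 in wild type, and −1.53 to 1.26 for Itgb1 and −0.61 to 0.17 for Itgb7 in deficient mice.

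Of the other adhesion genes, the average genotype difference of Itgb2l was called under all 19 alternatives run for it (adjusted p up to 0.0233), while its call was lost under 6 of 20 in LSK and 6 of 20 in GMP. Another alternative kept only probes well above background on all arrays. Itgb2l, Fgr, Skap1 and Thbs1 did not pass that filter and could not be tested under it. Calls were lost under 15 of 20 alternatives for Fgr in GMP and 2 of 19 in the average, 10 of 20 for Fn1, 13 of 19 for Thbs1, 16 of 19 for Skap1, 12 of 20 for Itga9, 10 of 20 for Jam3, 6 of 21 for F11r and 7 of 21 for Fcer1g. Groups of 2 arrays and the weak signal of deficient LSK replicate 2 limit what could be detected. The standard errors of the 9 genes ran from 0.65 to 0.89 within a population, and a missing call does not show that groups were alike.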
